A study of Homo sapiens with 3 samples.

Results

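Histone genes encode the proteins that package DNA, and 69 of the 18417 genes measured in this series carried a histone symbol. The members were chosen by symbol alone (H1-, H2AC, H2AZ, H2AX, H2BC, H3C, H3- and H4C genes), each read by a probe set annotated to that gene only. Of the 69, 54 were classed as clustered replication-dependent genes, 8 as variants and 4 as testis genes. The other members were the pseudogenes H1-9P and H2BC19P and the antisense transcript H1-10-AS1, which are kept apart. The variant class is a label: it also holds germ-cell linker genes, and how far its genes depend on replication was not tested. The cells were HepG2, an established human liver tumour line grown in MEM, on 3 Affymetrix arrays. The control array held untreated cells, the GO array cells exposed to graphene oxide for 24 h, and the rGO array cells exposed for 24 h to reduced graphene oxide, a form with fewer oxygen groups. Each material was given at its own EC20, the dose tied to a 20% effect in viability assays, and the labels give no concentrations. The groups had 1 array each, so every difference below is between 2 single arrays, carries no error and was not tested.

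A nucleosome wraps DNA around an octet of the core histones H2A, H2B, H3 and H4, and the linker histone H1 binds where DNA enters and leaves. Most of this protein comes from clustered genes, present in many near-identical copies, that are transcribed when DNA is replicated and give mRNAs that end in a stem-loop in place of a poly(A) tail. Variant histones such as H2A.Z and H3.3 are made throughout the cell cycle from ordinary polyadenylated mRNAs and are placed by dedicated chaperones. The labels name total RNA as the input and the Ambion WT Expression kit for labelling, and they mention no poly(A) selection.

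Values are log2 expression values, so a difference of 1 is 2-fold. The array medians over all probe sets were 6.65 (control), 6.63 (GO) and 6.66 (rGO). A gene was said to reach the level when its mean over the 3 arrays was at least 6.66, the 40th percentile of all genes; below it background can hide part of a difference. This held for 32 of the 54 clustered genes, all 8 variants and 0 of the 4 testis genes. All 8 hepatocyte markers measured reached the level in this hepatocyte-derived line, with values of 10.97 to 13.50 in the control. Of the other cell types' markers, 1 of 4 leukocyte genes (LYZ), 1 of 4 fibroblast genes (COL1A1) and 0 of 3 endothelial genes did.

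Near-identical copies limit what a probe set can resolve. The probe sets of H4C14 and H4C15 held identical values on all 3 arrays and therefore give 1 measurement under 2 names. A further 24 probe sets, holding 21 distinct sets of values, were annotated to several genes of which at least 1 was a histone gene of the chosen families. They were left out of the classes, and 15 genes, among them H3C13, H3C14, H3C15 and the H3.3 gene H3-3A, were read by shared probe sets alone. Cross-hybridisation between copies can also reach probe sets with a single name, so the values of single clustered genes are uncertain.

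The start regions of the clustered H2B genes are shown first, because H2B genes lay mostly on the higher side after GO and because the octamer, the site of the activator POU2F1 (OCT1), is a textbook feature of H2B promoters. Each sequence is the 80 bases before the transcription start, 5′ to 3′ on the gene's strand, from RefSeq (GRCh38.p14). Capitals mark the octamer ATTTGCAT, CCAAT and TATAAA, each searched on both strands. H2BC9 (chr6:26251534-26251613, plus strand), H2BC8 (chr6:26216689-26216768, minus strand) and H2BC21 (chr1:149886683-149886762, minus strand) were the H2B genes with the 3 highest GO differences. H2BC14 (chr6:27814942-27815021, plus strand) lay near the H2B median, and H2BC10 (chr6:26272851-26272930, plus strand) and H2BC11 (chr6:27132796-27132875, minus strand) lay below 0.
H2BC9: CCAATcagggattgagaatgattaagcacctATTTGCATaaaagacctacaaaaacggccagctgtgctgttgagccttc
H2BC8: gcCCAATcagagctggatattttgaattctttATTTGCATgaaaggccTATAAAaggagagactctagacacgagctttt
H2BC21: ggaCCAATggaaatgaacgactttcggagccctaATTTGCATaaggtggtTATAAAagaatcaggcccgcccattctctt
H2BC14: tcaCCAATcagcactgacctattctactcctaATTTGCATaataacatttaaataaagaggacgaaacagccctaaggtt
H2BC10: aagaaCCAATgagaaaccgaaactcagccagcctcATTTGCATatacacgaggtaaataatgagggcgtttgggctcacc
H2BC11: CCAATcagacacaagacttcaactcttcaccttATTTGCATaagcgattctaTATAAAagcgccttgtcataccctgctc

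All 6 held CCAAT followed by the octamer, with the octamer's first base between positions -49 (H2BC9) and -45 (H2BC10) from the start. H2BC7, the clustered gene with the highest rGO difference, held its octamer at -111, outside the bases printed, so this spacing describes the 6 genes shown. H2BC10 and H2BC11 held CCAAT and the octamer, as did the members that lay higher. TATAAA was in the printed bases of H2BC8, H2BC21 and H2BC11, and not in those of H2BC9, H2BC14 and H2BC10. Over windows from 250 bases before to 50 after the start, the octamer was found in 12 of 15 clustered H2B genes, 9 of 12 H2A genes, and 0 of 5 H1, 0 of 6 H3 and 0 of 11 H4 genes with a listed promoter, against 1.77% of all 35116 promoters. Divergent H2A and H2B neighbours share parts of their windows, so 1 octamer can count for both genes. CCAAT was found in 41 of the 49 clustered genes with a listed promoter (34.6% of all promoters) and TATAAA in 32 (11.5%). TATAAA can overlap the octamer by a single end letter only. Among the H2B genes, the 12 with the octamer had a median GO difference of 0.17 (-0.29 to 0.37) and the 3 without it, H2BC5, H2BC13 and H2BC26, one of 0.02 (-0.10 to 0.22). These ranges overlap, and a match of letters is a description of the window only.

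Variant promoters are shown for contrast, with the same capitals, for H2AZ1 (chr4:99950276-99950355, minus strand), H2AZ2 (chr7:44848088-44848167, minus strand), H3-3B (chr17:75779780-75779859, minus strand) and H2AX (chr11:119095466-119095545, minus strand).
H2AZ1: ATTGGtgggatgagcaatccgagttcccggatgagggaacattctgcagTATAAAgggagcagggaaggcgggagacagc
H2AZ2: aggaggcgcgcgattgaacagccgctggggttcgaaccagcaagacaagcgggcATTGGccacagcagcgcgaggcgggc
H3-3B: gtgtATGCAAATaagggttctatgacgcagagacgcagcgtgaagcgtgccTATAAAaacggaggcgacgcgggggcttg
H2AX: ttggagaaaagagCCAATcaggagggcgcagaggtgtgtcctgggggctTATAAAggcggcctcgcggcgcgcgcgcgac
Of 7 variant genes with a listed promoter, 1 held the octamer: H3-3B, in the reverse orientation ATGCAAAT. CCAAT was found in 6 of the 7 and TATAAA in 4.

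No clustered, variant or testis histone gene differed by 1.5-fold (log2 0.58) between any 2 of the 3 arrays. Among all genes this size was met upwards by 1.41% and downwards by 2.99% after GO, by 0.076% and 0.282% after rGO, and by 1.3% and 2.2% in GO minus rGO. Within that narrow range the class medians differed after GO: clustered genes had a median difference from control of 0.09 and variants one of -0.14. The variant value rests in part on the germ-cell linkers H1-7 and H1-8: over the 6 other variants, those left by a 60th percentile filter on the level, the median was -0.048 with 3 of 6 below 0. With that filter on both classes the distance between the medians was 0.15 in place of 0.24. After rGO the medians were -0.02 and -0.0093. In bulk RNA, fewer cells of a kind (here cells in S phase) and less RNA per cell cannot be told apart.

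**Figure D1:**
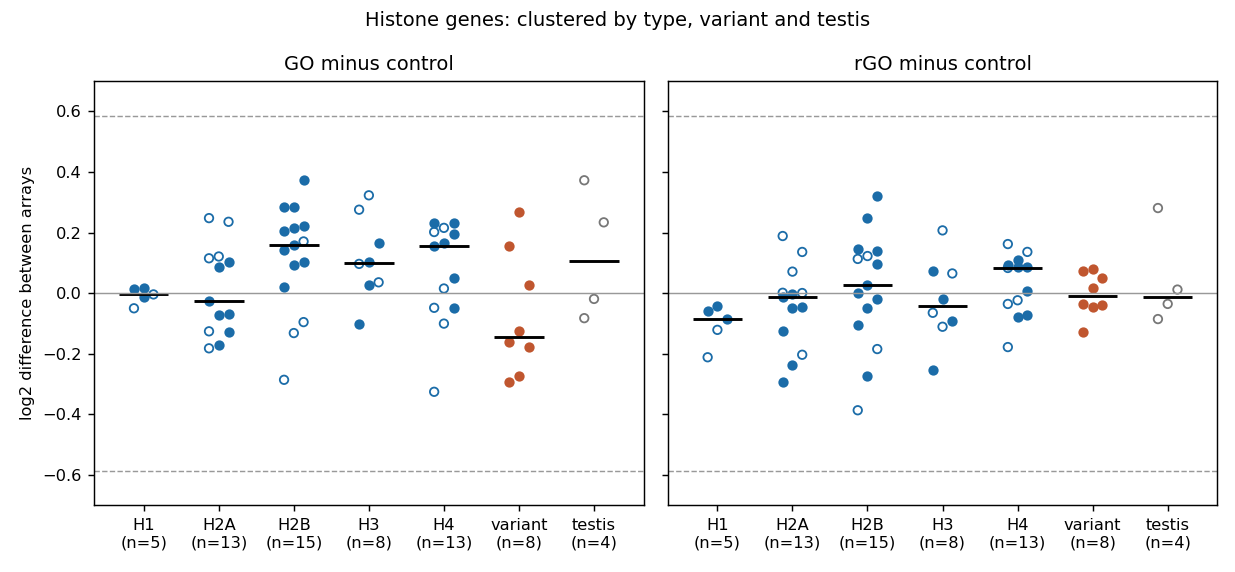
Log2 differences from the control array (vertical axis) for each histone gene after GO (left) and rGO (right), for the clustered genes by type and for the variant and testis genes. Each point is 1 gene, filled where it reaches the level and open where it does not; bars are medians and dashed lines mark 1.5-fold. All points lie inside the dashed lines, and after GO the bars of H2B (0.16) and H4 (0.16) lie above that of the variants (-0.14).

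The comparison of GO with control asked how graphene oxide changed gene expression. Of the 54 clustered genes, 36 were above 0 after GO, against 48.7% of all genes. The median over all genes was -0.0059, and the robust SD (scaled median absolute deviation) was 0.18 among clustered genes and 0.22 among all genes. At a smaller size, a log2 difference of 0.322, 2 clustered genes were higher, H2BC9 and H3C11, where 7.49% of all genes were, and 1 was lower, H4C9, where 10.9% of all genes were. Shares of 2 and 1 in 54 are below those backgrounds.

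The H2B genes, whose product pairs with H2A in the nucleosome, lay above 0 after GO in 12 of 15 cases (median 0.16). H2BC9 read 9.21 in the control, 9.58 after GO and 9.46 after rGO, which is 1.29-fold higher with GO. H2BC21 read 8.55, 8.83 and 8.44 in the same order, and H2BC8 read 8.45, 8.74 and 8.59. Thus on their own probe sets H2BC9 and H2BC8 were higher on both exposed arrays, and H2BC21 on the GO array only. A probe set shared by H2BC21 with H2BC19P and H2BC20P stood at 0.19 after GO and 0.06 after rGO. One shared by H2BC21 with H2BC18 and H2BP1 stood at 0.01 and -0.04. H2BC13 (0.22), H2BC17 (0.21) and H2BC4 (0.20) also had their highest value on the GO array. H2BC14 read 12.21, 12.37 and 12.35, and H2BC3 read 9.09, 9.20 and 9.19, so that GO and rGO gave nearly the same value in each. The 3 H2B genes below 0 after GO, H2BC11 (-0.29), H2BC10 (-0.13) and H2BC26 (-0.10), did not reach the level.

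The H4 genes, whose product pairs with H3, lay above 0 in 9 of 13 cases (median 0.16). H4C14 and H4C15, as a single measurement, read 10.31 in the control, 10.55 after GO and 10.40 after rGO. A pair of probe sets shared by the same genes, identical to each other, read 7.36, 7.43 and 7.30, which is 0.07 after GO in place of 0.23 and -0.07 after rGO in place of 0.09. H4C5 read 9.90, 10.06 and 10.01, and H4C3 read 12.42, 12.47 and 12.43. The probe set with the lowest difference was H4C9, at 5.46, 5.13 and 5.54, under the level throughout. Most H4 genes are known to encode the same protein. H4C16, a solitary gene on chromosome 12, stood at 0.02.

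Of the clustered H3 genes, 7 of 8 lay above 0, and their median was 0.10. H3C11 read 6.47 in the control, 6.79 after GO and 6.68 after rGO, and H3C1 read 6.08, 6.36 and 6.15; neither reached the level. H3C10 stood at 0.17, H3C7 at 0.10 and H3C2 at 0.03, and the exception was H3C3 at -0.10. The probe sets shared by H3C13, H3C14 and H3C15 gave GO differences of 0.09 to 0.11. The probe set shared by H3C4 and H2AC7 went the other way, at -0.13 after GO and -0.17 after rGO.

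The H2A genes lay around 0 after GO, with a median of -0.02 and 6 of 13 above 0. Of the 7 H2A genes reaching the level, 2 were above 0 (51.1% of all genes reaching it), and the median was -0.07. H2AC20 read 10.89 in the control, 10.99 after GO and 10.84 after rGO, whereas H2AC21 read 10.84, 10.72 and 10.80. These neighbours on chromosome 1 lay on opposite sides of 0 after GO. Probe sets shared by both with H2AC18 and H2AC19 stood at 0.0039 after GO and -0.20 after rGO. On its own probe set H2AC15 read 9.98, 9.81 and 9.69 and was lower on both exposed arrays. A probe set shared by H2AC15 and H2BC15 went the other way. It read 7.17, 7.40 and 7.32, which is 0.23 after GO and 0.16 after rGO. H2AC14 stood at -0.18, and H2AC12 (0.25) and H2AC17 (0.24) were the highest H2A genes; none of these 3 reached the level. The linker genes H1-1 to H1-5 spanned -0.05 to 0.02, a narrow range, with H1-4 at 13.42, 13.44 and 13.38 and H1-2 at 10.36, 10.37 and 10.27. Their side of 0 after GO depended on the scaling, with 2 of 5 above 0 as deposited, 4 after quantile normalization and 3 after median centring. H1-1 and H1-3 did not reach the level.

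The variant histones split after GO, with 5 of 8 below 0, where 9419 of all 18417 genes were. For a class of 8 genes this share is near the background. H2AZ1 and H2AZ2, the genes of the H2A.Z isoforms placed at promoters and enhancers, read 11.13, 10.96 and 11.09, and 10.72, 10.45 and 10.68, in the order control, GO and rGO. Both had their lowest value on the GO array, at -0.18 and -0.27 from control. H3-3B, a gene of H3.3, read 10.14, 10.01 and 10.19. The shared probe sets of H3-3A, which also encodes H3.3, and the pseudogene H3P6 ranged from -0.09 to -0.00069 after GO. In contrast, H3-5, an intronless copy related to H3.3, read 10.47, 10.73 and 10.55, and H2AX, which is phosphorylated at DNA breaks, read 10.14, 10.29 and 10.21. How much signal of the H3.3 genes the H3-5 probe set holds was not tested. The linker variant H1-10 stood at 0.03. The germ-cell linkers H1-7 (-0.29) and H1-8 (-0.16) were the members of this class nearest the level, at 7.34 and 7.49 in the control. With class means in place of medians the distance between the classes was 0.14.

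**Figure D2:**
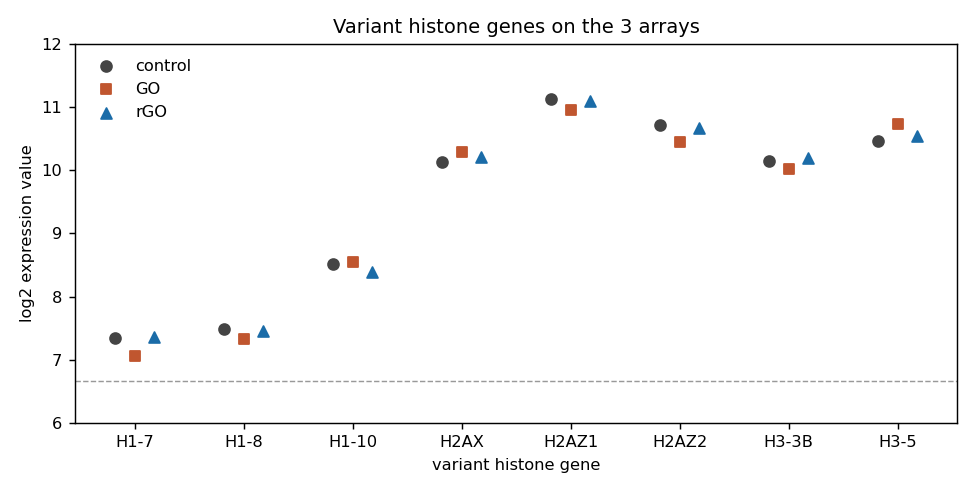
Log2 expression values (vertical axis) of the 8 variant histone genes on the control (circles), GO (squares) and rGO (triangles) arrays, 1 value per array; the dashed line marks the level of 6.66. H2AZ1, H2AZ2 and H3-3B have their lowest value on the GO array, and H2AX and H3-5 their highest.

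The testis genes, which are used in the germ line, did not reach the level. H2BC1 read 4.01 in the control, 4.38 after GO and 4.29 after rGO, H1-6 stood at 0.23 after GO, H3-4 at -0.08 and H2AC1 at -0.02.

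Many H2A and H2B genes lie side by side and are transcribed away from a shared region. In RefSeq order, 9 such neighbours, less than 1000 bases apart, had both genes measured, including the testis genes H2AC1 and H2BC1, and all 9 were divergent. After GO the H2B gene had the higher difference in 7 of 9, and the median of H2B minus H2A was 0.18. For example, H2AC6 stood at -0.07 and its neighbour H2BC4 at 0.20, and H2AC13 stood at -0.07 and H2BC13 at 0.22. The exceptions were H2AC11 (-0.02) with H2BC11 (-0.29), and H2AC17 (0.24) with H2BC17 (0.21). A probe set shared by H2AC13 and H3C10 stood at 0.08 after GO, where that of H2AC13 alone stood at -0.07. After rGO the H2B gene was higher in 5 of 9, with a median of 0.07. Both genes reached the level in 3 of the 9, and in these the H2B gene was higher in 3 after GO and 2 after rGO.

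**Figure D3:**
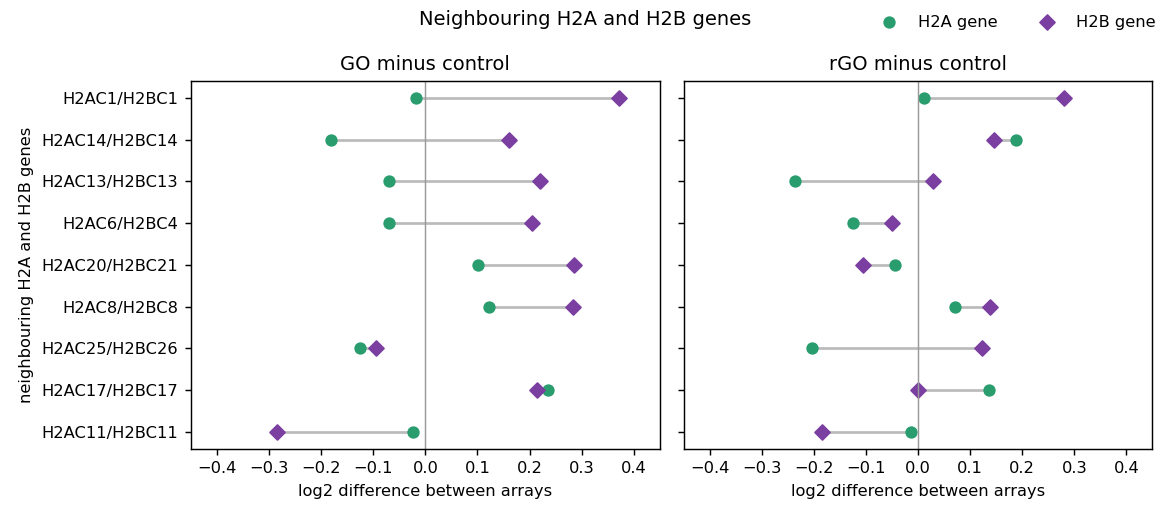
Log2 differences from control (horizontal axis) of 9 neighbouring H2A (circles) and H2B (diamonds) genes after GO (left) and rGO (right), 1 row per pair, joined by a line. After GO the diamond lies to the right in 7 of 9 rows, after rGO in 5 of 9.

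The comparison of rGO with control asked the same of the reduced material, and 24 of 54 clustered genes were above 0 against 44.9% of all genes. This share is close to the background, and quantile normalization gave 21 and median centring 26 of 54. The robust SD was 0.15 among clustered genes and 0.13 among all genes. At a log2 difference of 0.322, 1 clustered gene was lower, H2BC10 (-0.39, under the level at 5.24, 5.11 and 4.85), where 3.20% of all genes were, and 0 were higher, where 1.37% of all genes were. H2BC7 was just short of that size, with 10.23 in the control, 10.37 after GO and 10.55 after rGO. It was the clustered gene with the highest rGO difference (0.319), followed by H2BC9 (0.25) and H3C11 (0.21, under the level). On the lower side H2AC15 (-0.29), H2BC12 (-0.27), H3C3 (-0.25), H2AC13 (-0.24) and H1-1 (-0.21, under the level) followed H2BC10. Shared probe sets stood at 0.16 after rGO for H2AC15 with H2BC15, and at -0.10 for H2AC13 with H3C10. That of H2BC12 with H2BC12L, H2BC17 and H2BC5 stood at 0.02, and that of H3C11 with H3C6 at 0.06.

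By type, all 5 H1 genes were below 0 after rGO, from -0.21 (H1-1) to -0.04 (H1-4), as they were after quantile normalization and median centring. H1-1 and H1-3 did not reach the level, and the 3 H1 genes that did spanned -0.09 to -0.04. The medians were 0.08 for H4 genes (8 of 13 above 0, and 7 after quantile normalization) and 0.03 for H2B genes (8 of 15). Those of the other types were -0.01 for H2A genes (5 of 13, 3 after quantile normalization and 6 after median centring) and -0.04 for H3 genes (3 of 8). Among genes reaching the level, 0 of 7 H2A genes were above 0 (median -0.05), against 46.8% of all such genes. In the same set 5 of 7 H4 genes, 6 of 11 H2B genes and 1 of 4 H3 genes were above 0. Variants lay close to 0, from -0.13 (H1-10) to 0.08 (H3-5), with 4 of 8 above 0 against 44.9% of all genes. H2AZ1 and H2AZ2 both stood at -0.04.

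GO and rGO were also set against each other; this comparison reuses the arrays above, and the doses may differ, so it adds no independent evidence. Clustered genes had a median of 0.10 for GO minus rGO, with 45 of 54 above 0 against 53.1% of all genes, and variants one of -0.13, with 3 of 8 above 0. With the 60th percentile filter the variant median was -0.027, and the distance between the class medians 0.12 in place of 0.23. All 8 clustered H3 genes and all 5 H1 genes were above 0. H2BC21 (0.39) and H2BC12 (0.37) were higher with GO by more than the log2 size of 0.322, where 7.11% of all genes were. H4C9 (-0.41) and H2AC14 (-0.37), both under the level, were lower by more than that size, where 8.81% were. Shares of 2 in 54 are below both backgrounds. H3C10 (0.26), H2BC10 (0.25), H2BC4 (0.25) and H2AC12 (0.25) followed on the higher side, and H2BC26 (-0.22), H2BC7 (-0.18) and H2BC11 (-0.10) on the lower. Of these, H2BC10, H2AC12, H2BC26 and H2BC11 did not reach the level. H2BC7 was the lowest clustered gene that did.

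Genes that make, carry or accompany histones were set beside them from lists by name. Nearly all of these listed genes reached the level. Of the 11050 genes in the series reaching it, 467 were lower and 211 higher by 1.5-fold after GO. Of 27 measured genes that transcribe, process or degrade histone mRNA, 1 was lower by 1.5-fold and 0 higher by that size after GO, where 2.99% and 1.41% of all genes were. Of the 27, 8 lay above 0 (48.7% of all genes), and the median was -0.08. The 1 was CASP8AP2 (FLASH), which works in histone pre-mRNA processing, at 8.19 in the control, 7.58 after GO and 8.25 after rGO. TUT4, a terminal uridylyltransferase, stood at -0.32 after GO, and ERI1, the exonuclease that trims the histone stem-loop, at -0.28. SLBP, which binds that stem-loop, read 9.38, 9.22 and 9.40, and NPAT, the coactivator of clustered histone genes, read 8.78, 8.72 and 8.88. MIF4GD, a partner of SLBP in translation, stood at 0.15 after GO and -0.31 after rGO. After rGO the list had a median of 0.03, with 19 of 27 above 0 (44.9% of all genes). None of the 27 was past 1.5-fold after rGO, where 0.076% of all genes were higher and 0.282% lower. At those shares, 0 in so short a list is not a result about the list.

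Of 36 histone chaperones and exchange factors, 3 were lower by 1.5-fold and 0 higher by that size after GO, against the same 2.99% and 1.41% of all genes. Of the 36, 16 lay above 0 (48.7% of all genes), and the median was -0.05. HAT1, which acetylates new H4, read 10.46 in the control, 9.59 after GO and 10.49 after rGO. YEATS4, a subunit of the complexes that exchange H2A.Z, read 9.03, 8.16 and 9.20, and ASF1A, an H3-H4 chaperone, read 10.53, 9.73 and 10.47. Each of these 3 was low on the GO array alone. ATRX, which places H3.3 together with DAXX, stood at -0.48. Other members lay on the higher side after GO, among them the ATPases of H2A.Z exchange EP400 (0.47) and SRCAP (0.39) and the transcription elongation factor SUPT6H (0.33). After rGO the list had a median of 0.0091, with 18 of 36 above 0 (44.9% of all genes). It had 0 past 1.5-fold, where 0.076% of all genes were higher and 0.282% lower.

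Of 32 S phase genes, 1 was lower by 1.5-fold and 0 higher by that size after GO, near the 2.99% and 1.41% of all genes. Of the 32, 15 lay above 0 (48.7% of all genes), and the median was -0.0071. The 1 was POLE2, a subunit of DNA polymerase epsilon, at 9.44 in the control, 8.72 after GO and 9.44 after rGO. The cyclins CCNE2 and CCNA2 stood at -0.52 and -0.51, and the helicase subunit MCM3 at -0.48. On the higher side stood the transcription factor E2F1 (0.32), thymidine kinase TK1 (0.30), the replication licensing factor CDT1 (0.29), the phosphatase CDC25A (0.28) and cyclin CCNE1 (0.21). After rGO the median was 0.04, with 22 of 32 above 0 (44.9% of all genes). The list had 0 past 1.5-fold, where 0.076% of all genes were higher and 0.282% lower. The part that cycling cells have in the values of the clustered histone genes was not tested.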

How the data were processed

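Total RNA from 3 HepG2 cultures was measured on Affymetrix arrays, 1 per group. The authors deposited log2 expression values for 33297 probe sets. RMA and MAS5 stand in the submitters' processing notes with no role. The array medians were nearly equal, and the values were treated as normalised between arrays. For further scaling and the genome build, the sources used here give nothing. Probe sets were named from the platform annotation, which can be old: 19460 carried 1 symbol, 1754 several and 12083 none listed. Where a symbol had several probe sets, that of highest mean stood for it; all 69 histone genes had 1 probe set, and their IDs matched RefSeq.

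Differences of log2 values were counted past a size of 1.5-fold and summarised by medians beside all genes, with no level filter. Alternatives concerned normalization, probe sets, filters, copies and sizes. The code was checked on simulated data. The named genes were all variant and testis genes, the 6 highest and 6 lowest clustered genes per comparison, the 4 with the highest mean per type, and the 4 largest differences of each list with SLBP and NPAT; other members and list genes are examples picked after their values were seen. The members and lists were chosen with earlier results of these data known. Python 3.11.15, numpy 2.4.6, pandas 2.3.3 and matplotlib 3.10.9 were used.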

Additional observations from a re-analysis of the deposited data

How the results depend on the processing

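A setting was said to move a median when it shifted it by at least the robust SD between probe sets of the same gene (0.08 for GO minus control, 0.05 for rGO minus control and 0.07 for GO minus rGO, 365 genes). Counts, all 0 in the main setting, moved when they left 0. Of 174 such comparisons of class medians and counts with their alternatives, 163 did not move and 11 did. Many of the 163 could not move, so the tally does not measure robustness. All members had 1 probe set, so averaging probe sets changed nothing. Counts of 0 stay 0 at 2-fold, with a level filter or with identical copies merged. Median centring leaves clustered minus variant unchanged, and members added to the clustered class leave the variant median unchanged. No class median changed sign beyond the spread between probe sets. With a 60th percentile level filter the variant median was -0.048 for GO minus control and -0.027 for GO minus rGO, and clustered minus variant was 0.15 and 0.12. With means in place of medians clustered minus variant was 0.14 and 0.15. At a log2 size of 0.322 the counts of clustered genes were 2 higher and 1 lower for GO minus control, 1 lower for rGO minus control, and 2 higher and 2 lower for GO minus rGO, in place of 0. That filter left 6 of 8 variants, without H1-7 and H1-8; the cause of the other shifts was not tested. With quantile normalization or median centring the clustered, H2B, H3 and H4 medians stayed above 0 and the H2A and variant medians below 0 in GO minus control. Type medians and counts above 0 under other scalings were chosen after seeing the data. No paired analysis was possible because each group had 1 array, and for the same reason no array could be left out.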

Other observations

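Histone genes outside the chosen symbols gave values on both sides of 0. MACROH2A2, of the macroH2A variants with a large non-histone domain, read 8.39 in the control, 8.65 after GO and 8.33 after rGO, and MACROH2A1 read 10.39, 10.49 and 10.39. H2AJ stood at -0.24 after GO and the testis gene H2BW2 at 0.27 after rGO. A probe set shared by CENPA, the centromeric H3 variant, and SLC35F6 read 9.30, 9.24 and 9.35. Of these, H2AJ did not reach the level.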
